A study of Sus scrofa with 9 samples.

Results

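Solute carriers are membrane proteins that move nutrients, ions, vitamins, metals and metabolites across the cell surface and across organelle membranes. Transcripts of this superfamily were measured in longissimus dorsi, a back muscle, of Bama minipigs, a small pig breed. Probes were taken if the RefSeq accession printed for them on the array belonged to a pig gene whose symbol starts with SLC and a digit, and SLC25A6, SLC25A20, SLC27A1, SLC27A4, SLC2A1 and SLC2A4 were left out. This gave 150 probes of 77 genes in 32 families, out of 3194 genes that could be named on the array. Of these, 62 genes (113 probes) were measured well enough to be tested. SLC9A3R1 and SLC9A3R2 came in through their symbols and are scaffold proteins that tether membrane transporters, not transporters themselves.

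The HFHSD group (high-fat high-sucrose diet) was 6 minipigs that received 53% basal feed, 37% sucrose and 10% lard, and the CD group was 3 minipigs on standard pig chow. Feeding began at an age of 6 months and lasted 23 months, with a restricted ration set at 3% of body weight. All animals were gonadally intact, lived in individual pens and were fasted overnight before dissection. Males and females were used, and which animal was which is not in the labels. The descriptions also disagree on the number of CD animals, which is 3 in the series design and 6 in the growth protocol, and 3 CD arrays were analysed here. Each animal gave 1 array.

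Families of solute carriers are numbered, and members of a family share ancestry and often a class of substrate. In muscle fibres, carriers of the SLC25 family link the mitochondrial matrix to the cytosol, SLC16 carriers move lactate with a proton, SLC6A8 brings in creatine, and SLC7 and SLC38 members supply amino acids. Zinc exporters of the SLC30 family load zinc into vesicles and the Golgi or send it out of the cell.

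Levels are log2 processed intensities minus the 75th percentile of the array, so 0 is that percentile, and differences are HFHSD minus CD, given with their standard error (SE) from limma. Levels of different genes rest on different probes and are not set against each other. Muscle fibre markers were high on every array, with a list mean over 11 genes from 9.63 to 10.33. Of these genes 9 were lower and 2 higher in HFHSD, with a median difference of -0.19, and 0 passed the test. With normexp background correction 9 were higher and 2 lower. All 10 adipocyte markers were higher in HFHSD (9 with normexp background correction) and 1 passed in limma (CIDEA, adjusted p = 0.0378). Their list mean ran from 0.57 to 1.71 in HFHSD and from -0.034 to 0.12 in CD. Among them, PLIN1 was well above background on 5 HFHSD arrays and 0 CD arrays, and so entered the test through HFHSD alone. The sign of PLIN1 turned with normexp, to -0.16. The array CD 1 stood apart: 36.8% of its probes were well above background, against 51.2% to 68.9% on the others. HFHSD 5 and HFHSD 6 shared a slide (slide 1) with no CD array and were scanned on another day. CD 1 was the only CD array on slide 2, and HFHSD 2 the only HFHSD array on slide 3. Each difference within a slide below therefore rests on 1 animal in 1 of the groups. In a bulk sample, fewer cells of a type and less RNA per cell cannot be told apart, and the part of fat cells, slide or CD 1 in the differences below was not tested except where a value without them is given.

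By its brightest probe, no solute carrier gene passed an adjusted p of 0.05 in limma, 0 of 62, where 0.995% of the 2613 tested named genes did. At an unadjusted p under 0.05 there were 14 genes, 4 higher and 10 lower in HFHSD, which is 22.6% against 18.4% of named genes (6.74% higher and 11.7% lower). Among single probes, 0 of 113 passed (24 at an unadjusted p under 0.05), where 1.23% of all 27922 tested probes did, 0.537% in the lower direction. The differences leaned to lower values in HFHSD: 40 genes were lower and 22 higher, a share of 64.5% lower against 57.6% of named genes. Their median difference was -0.20, beside -0.085 over named genes and -0.024 over all tested probes. Without CD 1 it was -0.10, beside -0.042 over named genes, and without the 2 scaffold proteins it was -0.18.

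By the brightest probe, the diet groups were fully separated, with no overlap between arrays, in 7 genes, and all 7 were lower in HFHSD. That is 11.3% of the 62, beside 13.1% of named genes not overlapping in either direction and 8.88% lower, and 0 were higher where 4.17% of named genes were. Without CD 1, where fewer arrays must separate, 9 members (14.5%) were lower without overlap and 1 (1.61%) higher, beside 10.3% and 9.34% of named genes. The 7 genes are SLC25A15, SLC35C1, SLC52A2, SLC30A6, SLC9A3R2, SLC25A3 and SLC25A25. The errors were large beside most differences: the median SE was 0.32, and the 95% interval lay wholly within 1 log2 unit of 0 for 19 genes. A difference in log2 above 1 in size was measured for 5 genes, SLC34A1, SLC25A15, SLC7A1, SLC5A4 and SLC7A2.

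**Figure D1:**
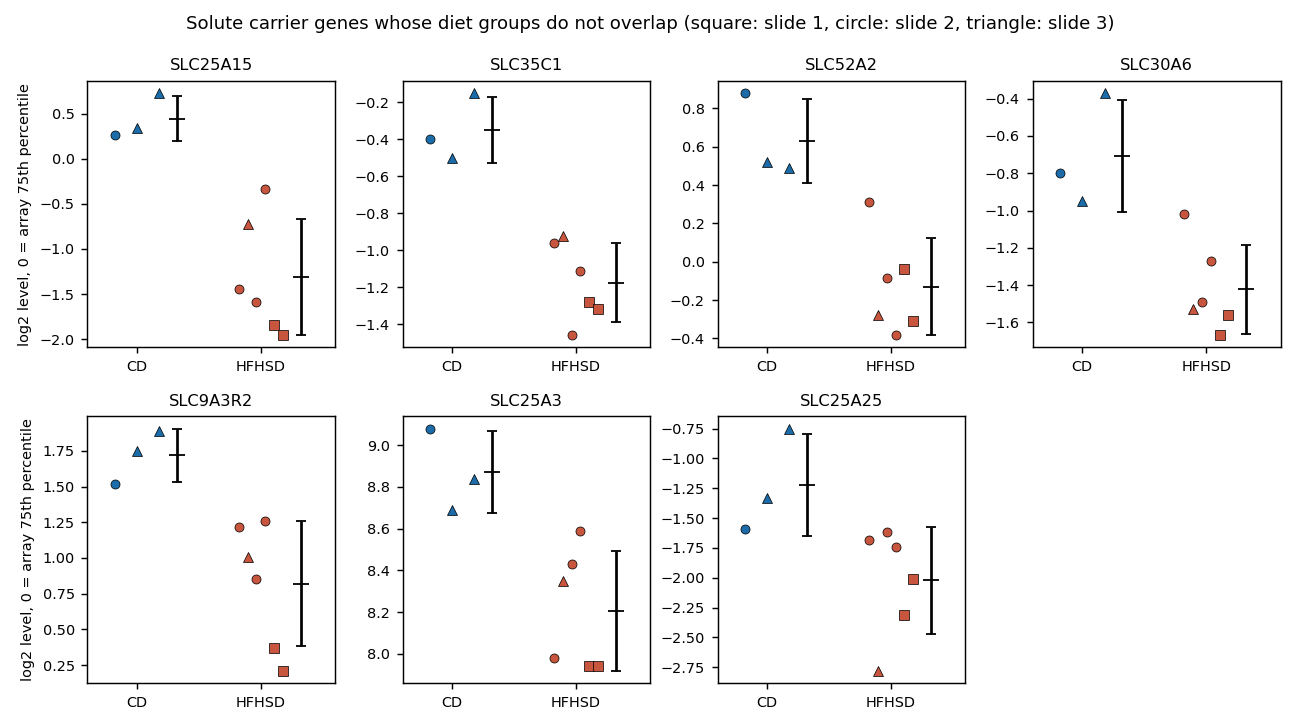
Log2 levels (y axis, 0 is the array's 75th percentile) of the 7 genes whose diet groups did not overlap, with 1 point per array, the marker shape giving the slide, and bars for the mean ± SD. In each panel all 6 HFHSD points lie below all 3 CD points, and the gap is widest for SLC25A15 (difference -1.76).

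The mitochondrial carriers (SLC25) held 3 of the 7 non-overlapping genes, 42.9% of the 7 tested carriers, beside 8.88% of named genes in that direction. Of these carriers 5 were lower and 2 higher in HFHSD, and none passed. Their median difference was -0.51, and -0.10 both with normexp and quantile normalisation and with the mean of a gene's probes.

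SLC25A15, the ornithine carrier that links the urea cycle and ornithine metabolism to the matrix, had the largest difference among the mitochondrial carriers. It read 0.27, 0.34 and 0.73 on CD 1, CD 2 and CD 3, the order in which CD values are given throughout, and from -1.95 to -0.33 (median -1.51) in HFHSD. The means were -1.31 ± 0.65 (SD, n = 6) in HFHSD and 0.45 ± 0.25 (SD, n = 3) in CD. The difference was -1.76 (SE 0.37, adjusted p = 0.0534), 3.39-fold lower, from a single probe, and -1.15 with normexp background correction. It was -1.39 within slide 2 and -1.26 within slide 3, and it passed the test when HFHSD 4 was left out. The lowest levels were on HFHSD 5 and HFHSD 6, whose mean was -1.90 beside -1.02 on the other HFHSD arrays.

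SLC25A3, the phosphate carrier that feeds phosphate to ATP synthesis, read 9.08, 8.69 and 8.84 on the CD arrays and 7.94 to 8.59 (median 8.17) in HFHSD. The difference was -0.66 (SE 0.21, adjusted p = 0.155). Each of its 10 probes read lower in HFHSD, from -0.68 to -0.37, also within slide 2 and within slide 3, and the groups did not overlap for 5 of them. These probes report the same transcript in the same animals and are not separate evidence. With normexp background correction the brightest probe stood at -0.17.

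SLC25A25, a calcium-regulated carrier of ATP-magnesium and phosphate, read -1.59, -1.33 and -0.75 on the CD arrays and -2.78 to -1.62 (median -1.88) in HFHSD. Its difference was -0.80 (SE 0.30, adjusted p = 0.22). Within slide 3, where HFHSD 2 is the only HFHSD array, it was -1.75. Within slide 2, where CD 1 is the only CD array, it was -0.089. The slide 1 arrays had a mean of -2.16 beside -1.96 on the other HFHSD arrays. The related carrier SLC25A23 stood at -0.51 (SE 0.35) with overlapping groups and a second probe in the other direction at 0.42. SLC25A43 and SLC25A27 lay near 0, at -0.089 and 0.17. SLC25A24, a further ATP-magnesium carrier, was well above background on 0 CD arrays and 3 HFHSD arrays, and its level supports no fold.

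**Figure D2:**
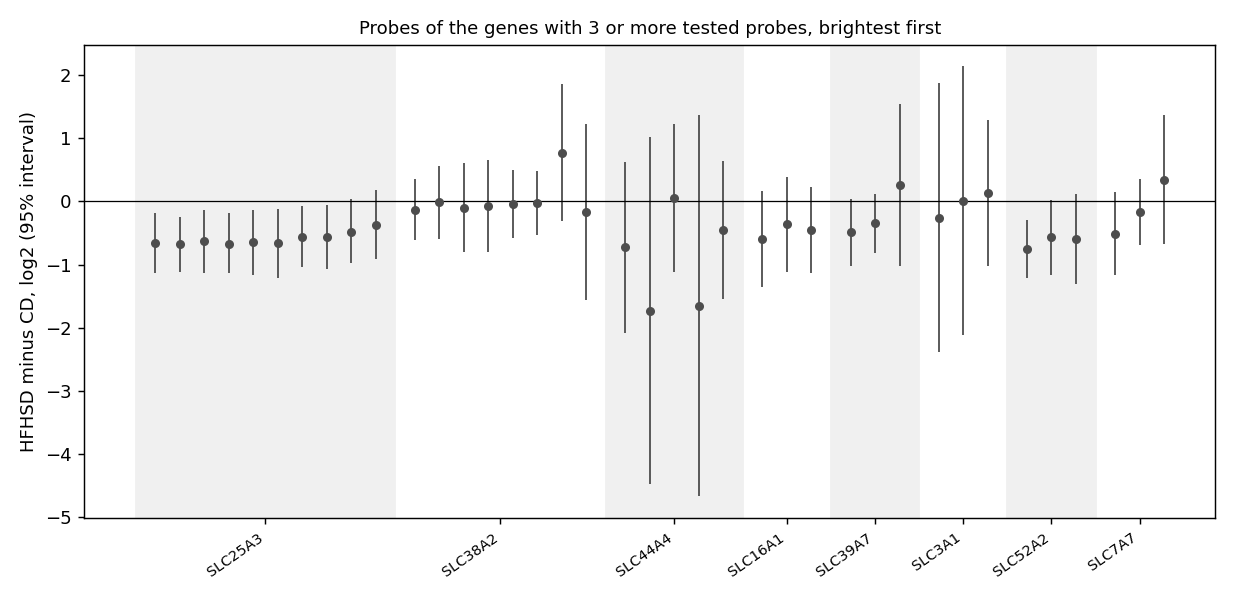
Difference in log2 (HFHSD minus CD, y axis) with its 95% interval for every tested probe of the genes with 3 or more tested probes, ordered from the brightest, none of which passed an adjusted p of 0.05. The 10 SLC25A3 probes all lie below 0, while the 8 SLC38A2 probes run from -0.17 to 0.77.

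All 4 vitamin transporters on the array were lower in HFHSD, with a median difference of -0.49, and none passed. SLC52A2 takes up riboflavin, the precursor of the flavin cofactors. It read 0.88, 0.52 and 0.49 on the CD arrays and -0.38 to 0.31 (median -0.18) in HFHSD, without overlap, and the difference was -0.76 (SE 0.21, adjusted p = 0.0993). Its 3 probes ran from -0.76 to -0.57, and the groups overlapped for all but the brightest. Normexp background correction gave -0.46 for the brightest.

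The plasma membrane thiamine transporter SLC19A2 stood at -0.52 (SE 0.42, adjusted p = 0.616). Its groups overlapped, and CD 3 was the highest array at 3.59. The ascorbate transporter SLC23A2 (-0.45) was dim and well above background on 3 arrays. The proton-coupled folate transporter SLC46A1 (-0.17) was highest on CD 1, and without that array its difference was 0.13.

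Amino acid transporters of the SLC1, SLC3, SLC7 and SLC38 families gave 8 tested genes, 6 lower and 2 higher, with a median of -0.20 and no group without overlap. The cationic amino acid transporters SLC7A1 and SLC7A2, which both carry arginine and lysine, went opposite ways. SLC7A1 read 1.91, 1.57 and 2.67 on the CD arrays and -0.10 to 2.01 (median 0.77) in HFHSD, and the difference was -1.21 (SE 0.47, adjusted p = 0.231). The 2 lowest arrays were HFHSD 5 and HFHSD 6, and the difference was -0.73 within slide 2 and -0.65 within slide 3.

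SLC7A2 read 1.84, 1.52 and -0.076 on the CD arrays and 1.17 to 2.69 (median 2.17) in HFHSD, and the difference was 1.06 (SE 0.46, adjusted p = 0.285). CD 3 alone was far below the rest, and within slide 2, which lacks it, the difference was -0.072. The light chain SLC7A7 stood at -0.51 (SE 0.30) by its brightest probe and at -0.18 without CD 1, with its other probes at -0.17 and 0.34. The light chain SLC7A8 stood at -0.42 (SE 0.54, adjusted p = 0.774).

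SLC38A2 imports glutamine, alanine and other small neutral amino acids and is induced by amino acid shortage. It read 6.26, 6.27 and 6.00 on the CD arrays and 5.64 to 6.35 (median 6.11) in HFHSD, and the groups overlapped. The difference was -0.13 (95% interval -0.61 to 0.35, adjusted p = 0.829), so a change above 1 log2 unit lies outside the interval. Of its 8 probes 7 were lower and 1 was higher at 0.77. The sign of the brightest probe turned with normexp and with slide as a fixed block. The slide 1 arrays were the lowest, with a mean of 5.69 beside 6.22 on the other HFHSD arrays. SLC38A5 (-0.033) and the glutamate transporter SLC1A3 (0.042) lay near 0.

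SLC16A1 is the widely expressed lactate and pyruvate transporter MCT1. It read 0.98, -0.11 and 1.07 on the CD arrays and -0.37 to 0.81 (median -0.071) in HFHSD. Its 3 probes were all lower, from -0.60 to -0.36, with adjusted p = 0.434 for the brightest. BSG, the chaperone that carries MCT1 to the membrane, stood at -0.65 (SE 0.22, adjusted p = 0.176), with CD 2 inside the HFHSD range. The creatine transporter SLC6A8 read 3.58, 2.59 and 3.55 on the CD arrays and 2.40 to 3.34 (median 2.76) in HFHSD, and the difference was -0.47 (SE 0.29, adjusted p = 0.482). For both transporters CD 2 was the lowest of the CD arrays and lay among the HFHSD values.

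Carriers of inorganic ions gave 10 tested genes, 7 lower and 3 higher, with a median of -0.51, but the scaffolds SLC9A3R1 and SLC9A3R2 are counted here. SLC9A3R2 read 1.52, 1.75 and 1.89 on the CD arrays and 0.21 to 1.26 (median 0.93) in HFHSD, and the difference was -0.90 (SE 0.27, adjusted p = 0.131). The slide 1 arrays were again the lowest, with a mean of 0.29 beside 1.09. A second SLC9A3R2 probe stood at -0.47 with overlap, and at -0.047 within slide 2. The bicarbonate cotransporter SLC4A4 stood at -0.59 (SE 0.29) with overlap, and at -0.36 without CD 1. The potassium-chloride cotransporter SLC12A4 stood at -0.64 (SE 0.36) with overlap. Its slide 1 arrays had a mean of -1.01 beside 0.09 on the other HFHSD arrays, and the difference was -0.21 with slide as a fixed block and 0.0013 within slide 3. Of the SLC26 family, SLC26A6 was at -0.41, with -0.19 without CD 1 and a second probe at -0.069. SLC26A5 was dim, well above background on 6 arrays, and stood at -0.43. The probes of the sulfate transporter SLC26A11 went opposite ways, at 0.24 and -0.28. The sodium-proton exchanger SLC9A2 (0.10) and the calcium exchanger SLC24A2 (0.30) did not pass.

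SLC34A1, the sodium-phosphate cotransporter known from the kidney proximal tubule, had the largest difference of all members, and it rested in part on CD 1. It read 0.55 on CD 1, -2.65 on CD 2 and -2.01 on CD 3, and -4.26 to -2.59 (median -3.16) in HFHSD. The difference was -1.92 (SE 0.64, adjusted p = 0.165), and -0.96 without CD 1. It was -3.85 within slide 2, which holds CD 1, and -0.69 within slide 3. SLC3A1, the heavy chain of the kidney and gut cystine transporter, read 0.80 on CD 1 and averaged -2.26 on the other CD arrays, and it ran from -2.98 to 0.64 (median -1.67) in HFHSD, with HFHSD 2 at the top. SLC44A4, a choline-like transporter of epithelia, read 1.57 on CD 1 against -0.61, and SLC9A3R1 0.94 against -0.91. Without CD 1 the difference of SLC3A1 went from -0.26 to 0.76, and that of SLC44A4 from -0.73 to -0.0051. In each of these 4 genes CD 1 was the highest of the 9 arrays.

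The same array stood out for FXYD2, a kidney-enriched subunit of the sodium pump, at 2.50 on CD 1 beside -3.73 and -2.54 on the other CD arrays. A kidney tubule list, chosen after these values were seen, had 7 tested genes out of 12 on the array, 2 of them solute carriers counted here. Without FXYD2 and SLC34A1, given above, the mean of the other 5 genes was -0.048 on CD 1, -0.96 on CD 2, -0.92 on CD 3 and -1.67 to -0.36 in HFHSD. Of those 5 genes 1 (HNF4A) was highest on CD 1 by the brightest probe. SLC22A6, the kidney organic anion transporter, read -0.70 on CD 1 by that probe, below -0.16 and -0.21 on the other CD arrays. Its second probe was highest on CD 1, at -2.23, beside -4.07 on CD 2, -4.45 on CD 3 and -5.10 to -2.65 in HFHSD. A probe of SLC22A2 too dim to test read -0.036 on CD 1 and -6.67 to -4.46 in HFHSD. The tested SLC22A2 probe read -2.21 on CD 1 and -3.86 to -2.17 in HFHSD. An epithelium list chosen at the same time had 6 tested genes, with means of -0.81, -1.91 and -2.16 on CD 1, CD 2 and CD 3 and -2.20 to -0.65 in HFHSD. The solute carriers SLC22A8 and SLC12A1 of the kidney list were too dim to test. Across the 62 tested members CD 1 was the highest array for 15 genes, 24.2%, beside 21.9% of named genes.

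**Figure D3:**
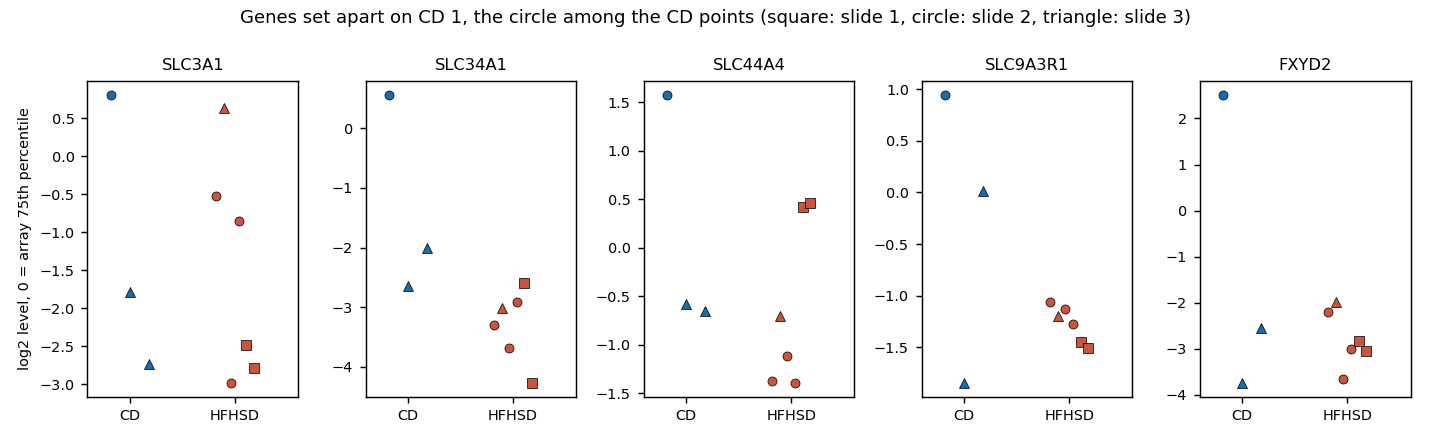
Log2 levels (y axis, 0 is the array's 75th percentile) of SLC3A1, SLC34A1, SLC44A4, SLC9A3R1 and FXYD2, 1 point per array, the marker shape giving the slide. The single CD circle is CD 1, which lies above the mean of the other CD arrays in every panel, by 3.05 for SLC3A1 and 2.88 for SLC34A1.

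Metal transporters gave 12 tested genes, 6 higher and 6 lower, with a median of -0.055. Of the 7 tested zinc exporters (SLC30) 5 were lower, with a median of -0.18 that was -0.31 without CD 2 and -0.34 with normexp and the 75th percentile. SLC30A6, which works in the Golgi, read -0.80, -0.95 and -0.37 on the CD arrays and -1.67 to -1.02 (median -1.51) in HFHSD. The groups did not overlap, both of its probes were lower, and the difference was -0.72 (SE 0.21, adjusted p = 0.121). SLC30A7, another exporter into the Golgi, stood at -0.36 (SE 0.20). SLC30A3, known from synaptic vesicles, stood at 0.53 (SE 0.35), with a mean of 1.63 on the slide 1 arrays beside 0.49 on the other HFHSD arrays. It was 0.16 with slide as a fixed block and -0.21 within slide 2. SLC30A4, SLC30A5 and SLC30A9 lay between -0.29 and 0.39.

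SLC30A1, the zinc exporter of the plasma membrane, stood at -0.12 (95% interval -0.59 to 0.36) and at 0.005 without CD 1. The zinc transporter SLC39A7, which releases zinc from the endoplasmic reticulum, was at -0.49 (SE 0.24, adjusted p = 0.337) by its brightest probe. That probe was at -0.028 within slide 2, and the other tested SLC39A7 probes stood at -0.35 and 0.26. The copper transporter SLC31A2 was higher in HFHSD by 0.55 (SE 0.22, adjusted p = 0.253), but its sign turned with normexp, to -0.20. Of the iron and metal transporters, SLC11A2 stood at 0.11 (95% interval -0.50 to 0.72) with a sign that also turned under normexp. SLC11A1, known from macrophages, stood at 0.30 (SE 0.48) by its brightest probe, and at -0.056 without CD 1. Its other probe was at -1.01 (SE 0.29, adjusted p = 0.115 in limma), without overlap between the groups. The magnesium transporter SLC41A1 was at 0.0066. Of the 6 tested macrophage markers none passed. They were all lower in HFHSD, with a median of -0.33, but 4 were lower without CD 1 and 3 with normexp.

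Nucleoside and nucleotide sugar transporters gave 7 tested genes, 3 higher and 4 lower, with a median of -0.019. SLC35C1 brings GDP-fucose into the Golgi for fucosylation. It read -0.40, -0.50 and -0.15 on the CD arrays and -1.46 to -0.92 (median -1.19) in HFHSD, without overlap, and the difference was -0.82 (SE 0.19, adjusted p = 0.067). Within slide 2 it was -0.78 and within slide 3 -0.59. SLC35F5 went the other way, at 0.63 (SE 0.27, adjusted p = 0.283), with both probes higher and the slide 1 arrays inside the CD range. SLC35A3, SLC35A4 and SLC35C2 lay between -0.23 and -0.019.

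SLC29A1, the equilibrative transporter that moves adenosine, read 3.27, 3.69 and 3.82 on the CD arrays and 3.11 to 4.53 (median 3.56) in HFHSD. Its difference of 0.14 (SE 0.37, adjusted p = 0.906) came from the slide 1 arrays, whose mean was 4.51 beside 3.34 on the other HFHSD arrays. With slide as a fixed block the difference was -0.032. The concentrative transporter SLC28A1 was well above background on 0 CD arrays and 3 HFHSD arrays, and no fold is given.

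Organic ion transporters (SLC10 and SLC22) gave 6 tested genes, 3 in each direction, with a median of -0.014. SLC22A4, which takes up ergothioneine, read 2.68, 3.18 and 2.86 on the CD arrays and 1.62 to 2.80 (median 2.16) in HFHSD. The difference was -0.68 (SE 0.28, adjusted p = 0.266), similar within slide 2 (-0.81) and slide 3 (-0.71), and -0.23 with normexp. SLC22A17, a receptor for lipocalin 2, stood at 0.46 (SE 0.20, adjusted p = 0.283) by its brighter probe and at 0.10 by the other, which was 0.012 with slide as a fixed block and -0.17 within slide 2. The anion transporter SLC22A7 stood at -0.66 (SE 0.45) and the remaining members between -0.13 and 0.32.

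The sodium-coupled SLC5 family gave 5 tested genes, 3 higher and 2 lower. SLC5A4, a low-affinity glucose transporter, read 1.67, 1.29 and -0.70 on the CD arrays and 1.04 to 2.35 (median 1.93) in HFHSD, and the difference was 1.08 (SE 0.49, adjusted p = 0.306). As for SLC7A2, CD 3 was the low array. SLC5A10 was at 0.014, with a second probe at 0.44. The iodide transporter SLC5A5 was at 0.10 and the inositol transporter SLC5A11 at -0.36. SLC5A1, the intestinal and renal glucose transporter, stood at -0.41 and, without CD 1, at 0.014, with a second tested probe at 0.18.

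**Figure D4:**
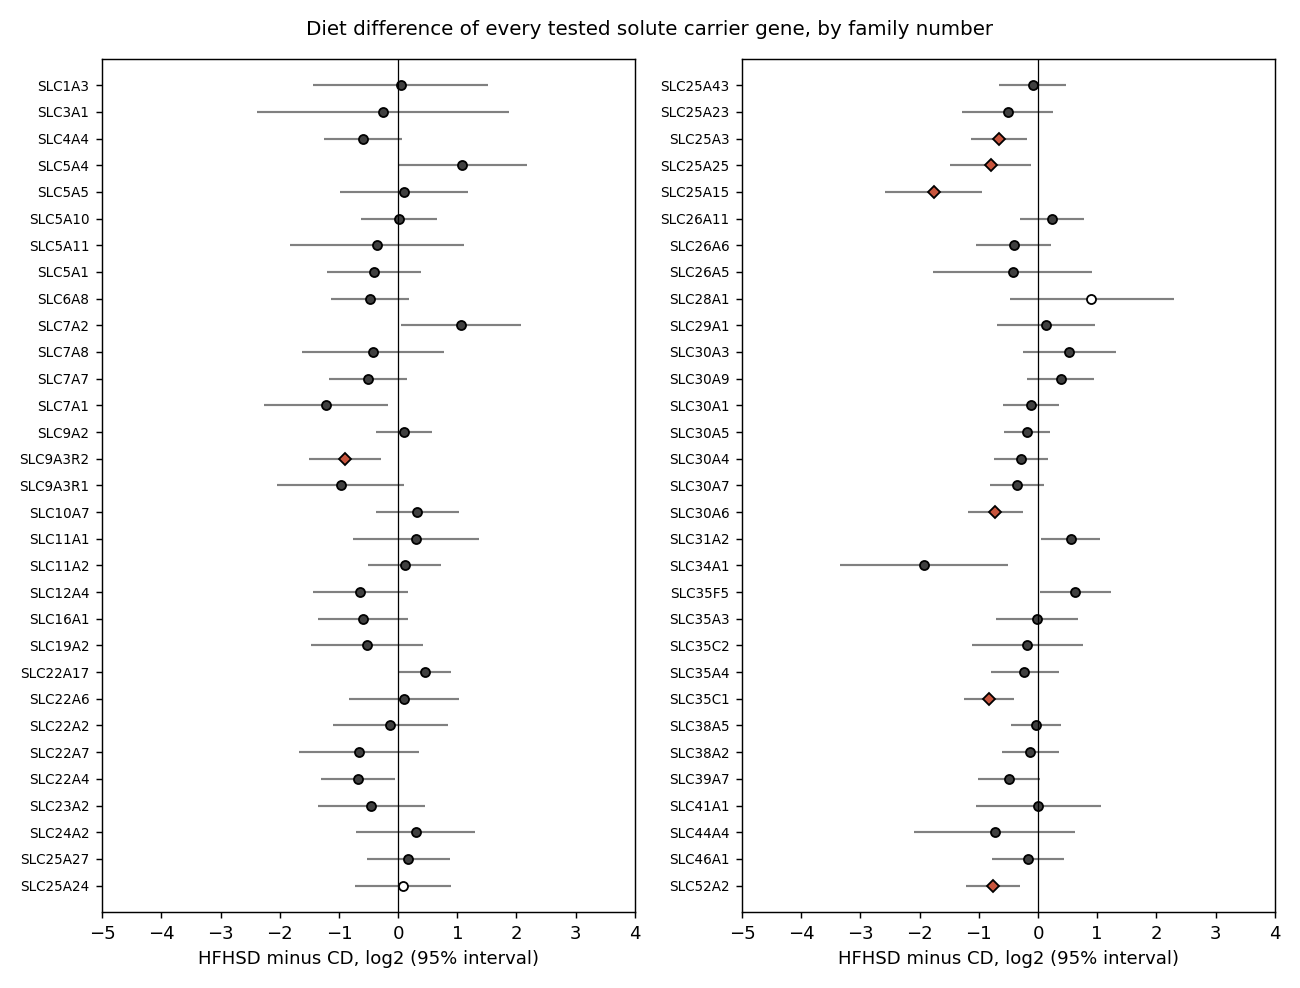
Difference in log2 (HFHSD minus CD, x axis) with its 95% interval for all 62 tested genes in the order of their family number; orange diamonds mark groups that did not overlap and open circles SLC25A24 and SLC28A1, which were well above background on 0 CD arrays. Of the points, 40 lie left of 0 and 22 right of it.

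The other 15 genes were not tested because no probe was well above background on at least 3 arrays, and 7 of them were above it on none. They are the peptide transporters SLC15A1 and SLC15A2, the hexose transporter SLC2A2, the copper importer SLC31A1, the zinc exporter SLC30A2, the amino acid transporters SLC1A1, SLC7A3 and SLC7A9, the ion carriers SLC12A1, SLC26A3 and SLC34A2, and the organic ion carriers SLC10A2, SLC17A1, SLC22A8 and SLC22A13. For these the arrays could not show a level, which does not mean that no transcript was present. Of a panel of 29 solute carriers known in muscle, 8 were on the array by this naming and all 8 were tested, with a median difference of -0.28, 6 lower and 2 higher.

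Other membrane transport genes, taken by family, gave 19 tested genes, 9 higher and 10 lower, with a median of -0.022, and 0 passed in limma (2 at an unadjusted p under 0.05). Of 9 aquaporins 7 were higher, with a median of 0.26, but 3 were higher with slide as a fixed block and 1 with normexp. AQP3, which passes water and glycerol, was the only one of the 19 without overlap (5.26%, beside 13.1% of named genes). It was well above background on 0 CD arrays and all 6 HFHSD arrays, and so entered the test through the HFHSD arrays alone. Its difference in the processed intensity is therefore a bound, 1.65-fold or more higher in HFHSD (measured means -2.84 and -4.49, adjusted p = 0.0819). HFHSD 6 (-3.56) and CD 1 (-3.61) nearly met. With normexp the sign turned, to -0.22 (adjusted p = 0.738). No minimum fold holds across settings, and the lack of overlap is not taken as support for a difference.

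**Figure D5:**
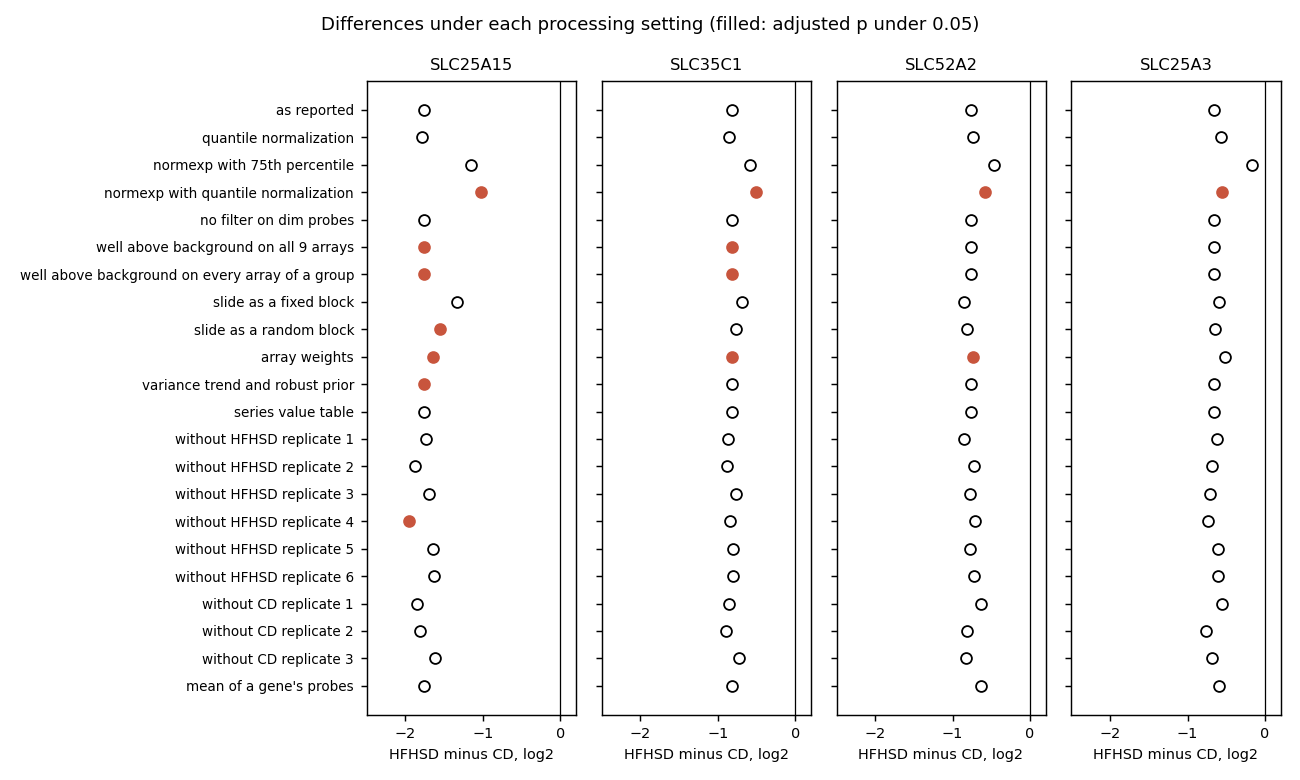
Difference in log2 (HFHSD minus CD, x axis) of SLC25A15, SLC35C1, SLC52A2 and SLC25A3 under each processing setting (y axis), filled orange where the adjusted p was under 0.05. All points lie below 0, and SLC25A15 was past the threshold in 7 of 21 alternatives and SLC35C1 in 4 of 21.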

How the data were processed

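Muscle RNA of 9 minipigs (6 HFHSD, 3 CD) was hybridised with 1 dye, per the labels, and the deposited intensity values were made with Agilent Feature Extraction 10.7.3.1, per the file headers. The processed intensity is background-subtracted and not scaled between arrays. The deposited series table holds the same intensity values as the scanner files, on a linear scale and uncentred: 0 spots differed, and its medians ran from 13.0 to 40.0.

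Control spots were left out, spots of a probe were averaged, and 22 of 43603 probes with only outlier spots on some array were dropped. The log2 value minus the array's 75th percentile was tested with limma 3.58.1 in R 4.3.3 (lmFit, eBayes, two-sided, no covariates) over the 27922 probes well above background, by the scanner's call, on at least 3 arrays, with Benjamini-Hochberg adjustment over all of them and a threshold of 0.05. The script was tested on simulated data. Probes were named by accession through the RefSeq gene table of Sscrofa11.1, used for names only: 6884 probes of 3194 genes were named. A gene is represented by its brightest tested probe. Each array is a separate animal, so the spread includes variation between animals, and the number of arrays limits the precision. Replicate numbers were given in accession order.

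Genes named are those with a called probe, those without overlap, the measured panel of muscle carriers, and up to 3 per family by smallest p; further members were named to account for the families after their values were seen. Some genes that match the rule are not reported here, and the counts, medians and lists of members leave them out. The members and lists were chosen with earlier results of these data known. Slides (1: HFHSD 5 and 6; 2: HFHSD 1, 3, 4 and CD 1; 3: HFHSD 2, CD 2 and CD 3) entered as alternatives, beside array weights, quantile scaling, normexp (offset 50), other limits on dim probes, a trend in the variance, the mean of a gene's probes, a threshold of 0.10 and leaving out each array. Normexp used the median spot signal, because the mean signal column is not among those used here.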

Additional observations from a re-analysis of the deposited data

Results flagged for a closer look

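Among the 62 tested solute carrier genes, each checked over its 6 HFHSD arrays, 1 array stood far from the others. SLC25A27, a mitochondrial carrier related to the uncoupling proteins, read -2.91 on HFHSD 2, while the other HFHSD arrays lay between -2.06 and -1.69. The gap exceeded Dixon's 95% critical value of 0.625 for 6 samples, which chance alone passes in about 1 in 20 groups. On the same slide as HFHSD 2, CD 3 read -2.78 and CD 2 read -2.11.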

How the results depend on the processing

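The number of probes called over the whole array, 344 as reported, was 387 with quantile normalisation, 88 with normexp and the 75th percentile, 856 with normexp and quantile, 66 with no filter, 736 with probes above background on all 9 arrays, 887 with those above it on every array of a group, 84 with slide as a fixed block, 677 with it as a random block, 1205 with array weights, 612 with a variance trend and robust prior, and 1211 at an adjusted p of 0.10. It ran from 25 (without CD 3) to 325 (without HFHSD 4) with 1 array left out, and was 32 without CD 1. Of the calls, 56.4% were higher in HFHSD as reported and 71.6% with normexp and the 75th percentile, which also moved the median over all probes from -0.024 to -0.17, beside -0.24 for the solute carriers. With no filter that median was -0.20.

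Solute carrier genes called, 0 as reported, were 4 with normexp and quantile (SLC25A15, SLC25A3, SLC35C1 and SLC52A2), 2 with the filter on all 9 arrays and 2 with the group filter (SLC25A15 and SLC35C1 in both), 1 with slide as a random block and 1 with the variance trend (SLC25A15 in both), 3 with array weights and 3 at an adjusted p of 0.10 (SLC25A15, SLC35C1 and SLC52A2 in both), and 0 to 1 with an array left out (SLC25A15 without HFHSD 4). Solute carrier probes called, 0 as reported, were 5 with normexp and quantile, 2 with either stricter filter, 1 with slide as a fixed block (SLC35F5), 1 with the random block, 4 with array weights, 1 with the variance trend, 4 at an adjusted p of 0.10, and 0 to 1 with an array left out. Other transport genes called, 0 as reported, were 1 with the group filter, 1 with array weights and 1 at an adjusted p of 0.10. The call at 0.10 was AQP3, which entered the test, and meets the group filter, through the HFHSD arrays alone. The stricter filters test fewer probes, and the cause of the other shifts was not tested.

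The median difference of the solute carriers was -0.055 with normexp and quantile, beside -0.011 for named genes, and -0.29 with no filter (77 genes). With an array left out it ran from -0.32 to -0.10, beside -0.12 to -0.042 for named genes. The SLC25 median was -0.10 with normexp and quantile and -0.10 with the mean of a gene's probes. Signs turned for SLC11A2 (-0.28 with normexp and the 75th percentile, -0.091 with slide fixed, and -0.0094 to 0.25 with an array left out, lowest without HFHSD 6), SLC29A1 (-0.032 with slide fixed, -0.070 with array weights, and -0.024 to 0.26 with an array left out, below 0 without HFHSD 5, HFHSD 6 or CD 1), SLC30A1 (-0.31 to 0.005 with an array left out, above 0 without CD 1) and SLC38A2 (0.36 with normexp and the 75th percentile, 0.018 with normexp and quantile, 0.051 with slide fixed, 0.027 with the mean of its probes).

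No paired analysis was possible because the labels give the groups no shared replicate numbers. Dim members, on CD 1 above all, are limited by signal over background.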
